A study of Drosophila melanogaster with 56 samples.

Results

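The somatic sex determination pathway of Drosophila melanogaster was followed through the 7 genes Sxl, tra, tra2, dsx, fru, ix and her. These were taken by gene symbol from the 17490 genes of the count table, and all 7 were among the 15675 genes that passed a filter on low counts. RNA was sequenced from whole mated adults, pooled 30 flies to a library with the sexes kept apart, in 56 libraries of 14 lines, and 54 libraries (26 female, 28 male) were used. Per the general methods of the study, flies were 3 to 5 days old.

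All lines share the Canton S (B) background and a CRISPR replacement of the Obp50a-d cluster of odorant-binding protein genes, into which 1 of 8 versions of the cluster was put back. Obp50Pos carries the intact cluster (a+b+c+d+), and Obp50Neg has premature stop codons in all its paralogs (a-b-c-d-). Obp50a, Obp50b, Obp50c and Obp50d each keep only the paralog they are named for. In Obp50NegBCD (a-bCDc-d-) and Obp50cBCD (a-bCDc+d-), Obp50b carries amino acid substitutions in place of stop codons. Each line is a separate reinsertion, and the libraries of a line and sex are separate pools of flies. Obp50Neg is represented by lines 30 and 31, Obp50a by lines 1 and 11, Obp50b by lines 4 and 19, Obp50c by lines 6 and 24, Obp50NegBCD by lines 26 and 27, and Obp50cBCD by lines 5 and 21. Obp50Pos (line 8) and Obp50d (line 7) have a single line each, so that for them the line and the genotype cannot be told apart, and female Obp50Pos has 1 library.

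In female flies, Sex-lethal (Sxl) is switched on early by the number of X chromosomes and then maintains itself by directing the splicing of its own RNA. Sxl protein directs the splicing of transformer (tra) to a coding form, and Tra with Transformer 2 (tra2), both splicing regulators, selects the female form of doublesex (dsx) and removes the male form of fruitless (fru). The zinc-finger proteins Dsx and Fru then set the sexual traits of the body and the courtship circuits of the nervous system. Intersex (ix) is a Mediator subunit that works with the female form of Dsx, and hermaphrodite (her) encodes a zinc-finger protein needed for sexual differentiation. Much of this regulation is by splicing and by translation. The counts here sum all exons of a gene, so the values below are levels of all isoforms together and do not show which form was made.

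Coordinates are those of genome release 6, on whose gene models the authors counted. Sxl (FBgn0264270) lies on chromosome X from 7074550 to 7098053 with 9192 exonic bases, and tra (FBgn0003741) on 3L from 16590059 to 16591050 with 862. The gene tra2 (FBgn0003742) lies on 2R from 14602004 to 14604337 with 1844 exonic bases, and ix (FBgn0001276), a single exon of 727 bases, on 2R from 11359437 to 11360163. The long genes are dsx (FBgn0000504; 3R, 7924323 to 7967408; 9053 exonic bases) and fru (FBgn0004652; 3R, 18414273 to 18545586; 18433 exonic bases). The gene her (FBgn0001185) lies on 2L from 16677185 to 16679691 with 2378 exonic bases, and is the only one of the 7 on the plus strand. Counting was unstranded, and 8.585% of the exonic bases of tra also belong to l(3)73Ah on the opposite strand. The shared part was 1.867% for dsx (with lds) and 0.38% for tra2 (with Blos1).

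Total counts per library ran from 14638498 to 53517693. The roX RNAs, made in males for dosage compensation, separated the sexes in all 54 libraries. In all, 7 male libraries carried over 500 CPM of yolk and egg shell transcripts, against a median of 40.93 CPM over males, and 3 female libraries carried over 50 CPM of accessory gland transcripts. The other-sex RNA in these 10 libraries was a small part of the level in its own sex (median 43420 CPM of yolk and egg shell transcripts in females and 7148 CPM of accessory gland transcripts in males). They were picked out after the data were seen, and the sex differences and calls of the 7 genes are also given without them.

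Each of the 7 genes differed between females and males. Sxl, tra, tra2, ix and her were higher in females, and dsx and fru were higher in males. This was so in a transcriptome in which 83% of all genes tested passed the same threshold (39.4% higher in females and 43.6% higher in males), so that the count of 7 of 7 is near what all genes showed. The test was edgeR's quasi-likelihood test on the 54 libraries with Benjamini-Hochberg adjustment at 0.05, and the difference is the mean over the 8 genotypes of log2 female over male. The median over all genes was -0.10. In whole flies, fewer cells of a type and less RNA per cell cannot be told apart. Levels are given as TMM-scaled CPM, the counts of a gene per 1e6 counts of the library.

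Sxl, the splicing switch at the head of the pathway, ran from 302.5 CPM through a median of 449.2 to 1049 in the 26 female libraries. In the 28 male libraries it ran from 101.5 through 206.6 to 409.9 CPM. The ranges overlapped, with 6 female libraries inside the male range, only through the 2 males of line 24 (401.6 and 409.9 CPM). All other males were at 298.2 CPM or less. Within each of the 14 lines every female library was above every male one. The log2 difference was 1.17 (SE 0.10, 2.24-fold, adjusted p = 3.37e-14). Sxl RNA is made in males too, where it is spliced to a non-coding form, and these counts include that RNA.

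The direct target tra had 3.126 to 16.84 CPM in females (median 11.03) and 3.608 to 6.965 CPM in males (median 5.27). Apart from the libraries of line 24, female libraries were at 8.363 CPM or more and lay above all males. The log2 difference was 1.01 (SE 0.10, 2.02-fold, adjusted p = 9.30e-13). Its partner tra2, which is not itself known to be controlled by Sxl, had 39.06 to 67.04 CPM in females (median 50.1) and 22.07 to 35.23 CPM in males (median 28.76). The sexes did not overlap for tra2 in any of the 54 libraries, and the log2 difference was 0.82 (SE 0.06, adjusted p = 3.88e-17).

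The gene dsx differed most in this fit, ahead of ix (1.63), an order that turned without the libraries with other-sex transcripts (dsx -1.68, ix 1.81). Its female libraries ran from 24.97 through a median of 40.53 to 66.29 CPM, and its male libraries from 103.9 through 134.6 to 246.2 CPM. No female library reached the lowest male one, and the log2 difference was -1.74 (SE 0.10, 3.33-fold lower in females, adjusted p = 2.26e-20). For fru the female libraries ran from 26.66 through 45.73 to 86.81 CPM and the male libraries from 78.17 through 114 to 156.4 CPM. The overlap of fru came from 5 female libraries and 1 male library, the latter at 78.17 CPM from Obp50cBCD line 5. Its log2 difference was -1.18 (SE 0.12, 2.26-fold lower in females, adjusted p = 1.16e-12).

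The Dsx cofactor ix was the shortest of the genes and had the largest excess in females. It was counted at 6.422 to 14.01 CPM in females (median 11.21) and 1.537 to 5.412 CPM in males (median 3.406), with no overlap. Its log2 difference was 1.63 (SE 0.11, 3.10-fold, adjusted p = 8.85e-18). The gene her differed least, with 12.5 to 25 CPM in females (median 19.29) and 11.67 to 19.06 CPM in males (median 14.02). These ranges overlapped widely, with 13 female libraries inside the male range, and the log2 difference was 0.47 (SE 0.06, 1.39-fold, adjusted p = 8.65e-09). Over all genes tested, the sexes did not overlap for 32.3% (13.7% with females above and 18.5% with females below), beside 3 of the 7 here.

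**Figure D1:**
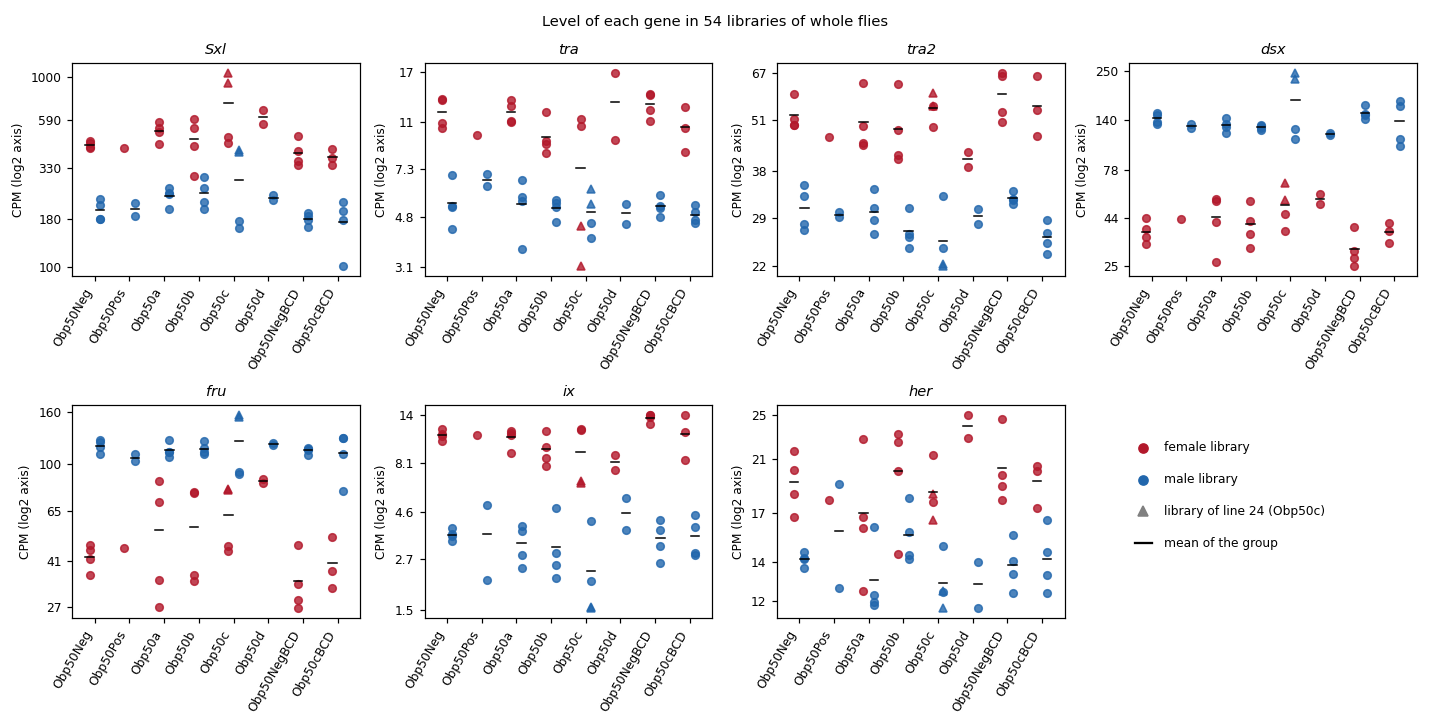
Each panel plots 1 gene, with the 8 genotypes on the x axis and CPM on a log2 y axis. Points are libraries (red female, blue male, triangles line 24) and bars are group means. The genes tra2, dsx and ix separate the sexes in all 54 libraries. Line 24 stands apart for Sxl and ix in both sexes, for tra in females and for dsx and fru in males.

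The sex difference kept its sign in all 8 genotypes for each gene and passed the test in 52 of 56 cases. Of all genes, 33% were higher and 36.8% lower in females in all 8 genotypes, and 62.3% of tests within a genotype passed. Without the 10 libraries with other-sex transcripts, 46 of 56 passed. The 4 that did not pass were tra (log2 0.57, adjusted p = 0.261) and her (0.17, adjusted p = 0.623) in Obp50Pos and fru (-0.49, adjusted p = 0.269) and ix (0.83, adjusted p = 0.0601) in Obp50d. Both are genotypes with few libraries and 1 line, and 46.1% and 54.2% of all genes passed in them. For dsx the difference ran from -1.11 in Obp50d to -2.33 in Obp50NegBCD, or 2.15-fold to 5.02-fold lower in females. For Sxl it stayed between 0.94 and 1.42, for tra between 0.56 and 1.40, and for tra2 between 0.47 and 1.11. By line, dsx and fru were higher in males in 14 of 14 lines and Sxl, tra2, ix and her higher in females in 14 of 14, with the sexes of a line not overlapping for any of these genes but her (11 of 14). The exception was tra, higher in females in 13 lines and higher in males in line 24.

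A joint test of whether the sex difference varied among the genotypes called 0 of the 7 genes (edgeR, smallest adjusted p = 0.353, for dsx), with 0 at an unadjusted p under 0.05. DESeq2 also called 0, while 1.97% of all genes were called by edgeR. The mixed model on GeTMM values called ix (adjusted p = 0.0472).

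**Figure D2:**
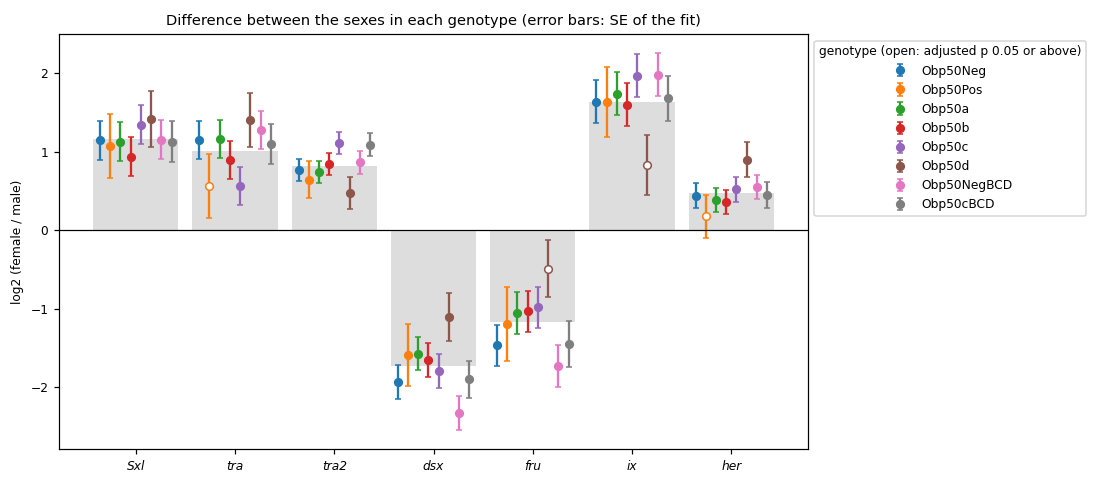
The y axis is log2 female over male and the x axis the 7 genes. Grey bars are the mean over genotypes, points are the 8 genotypes with the SE of the fit, and open points did not pass the test; ix and dsx lie farthest from 0, and the open points are tra and her in Obp50Pos and fru and ix in Obp50d.

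Libraries were named in 3 sets by the file headers, and the sex differences were also computed within the 2 larger ones. In the first set (18 female and 21 male libraries) and the second (8 and 5), the log2 ratio of mean CPM was 1.15 and 1.18 for Sxl, 1.01 and 1.08 for tra, 0.91 and 0.67 for tra2, and 1.69 and 1.75 for ix. It was -1.87 and -1.55 for dsx, -1.28 and -0.91 for fru, and 0.52 and 0.35 for her. The direction was therefore the same within each set for every gene. Without the 10 libraries with other-sex transcripts, the differences from the fit were 1.28 for Sxl, 1.07 for tra, 0.89 for tra2, -1.68 for dsx, -1.10 for fru, 1.81 for ix and 0.52 for her, and all passed.

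Levels were compared between genes only per kb of exon. In females the order of mean CPM per kb was Sxl (54.4 ± 18.3, SD, n = 26), tra2 (28.3 ± 4.45), ix (14.7 ± 3.06), tra (12.6 ± 3.32), her (8.14 ± 1.29), dsx (4.61 ± 1.20) and fru (2.79 ± 1.12). Neighbours in this order whose means lay closer than their SDs were ix and tra. In males the order of mean CPM per kb was Sxl (23.9 ± 7.07, SD, n = 28), dsx (15.8 ± 3.51), tra2 (15.6 ± 2.01), fru (6.23 ± 0.854), tra (6.12 ± 0.941), her (5.89 ± 0.787) and ix (4.57 ± 1.39). The genes dsx and tra2 were not separated there, nor were fru, tra and her, or her and ix. Sxl stood at the 89.9th percentile of all genes in females and at the 78.7th in males. Male levels of dsx moved it from the 48.9th percentile of female flies to the 69.6th. Spread between libraries of a group was smallest for tra2 and her, with a biological coefficient of variation of 14.1% and 14.9%, against a median of 26.5% over all genes. The other members had 21.1% to 25.8%.

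Genotypes were compared within each sex. Across the 9 contrasts of genotypes in each sex, 0 of 126 tests of the 7 genes passed (edgeR, smallest adjusted p = 0.0559), and 17 had an unadjusted p under 0.05. Over all genes, 1.28% of these tests passed. Their log2 differences ran from -0.94 to 1.00. All Obp50Neg libraries are of the first set, while the Obp50Pos libraries in use and all female Obp50a libraries are of the second. Between these libraries and Obp50Neg, genotype and set cannot be told apart, and the joint tests include them. In males a joint test over the 8 genotypes called 0 of the 7 genes (2.98% of all genes), with 0 at an unadjusted p under 0.05 and 0 by DESeq2. In females the joint test called Sxl (adjusted p = 0.0437) and fru (adjusted p = 0.0194), where 24.6% of all genes were called.

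Female fru was highest in Obp50d, at 83.9 and 86.81 CPM, and lowest in Obp50NegBCD line 26, at 26.66 and 28.71 CPM. In the null genotype Obp50Neg it was 47.35 and 41.77 CPM in line 31 and 35.95 and 45.4 CPM in line 30, so that the Obp50d libraries lay above all of them. The log2 difference of Obp50d to Obp50Neg was 1.00 (SE 0.31, unadjusted p = 0.00227) and did not pass after adjustment (adjusted p = 0.0901; DESeq2 adjusted p = 0.0342). The nervous system markers elav, nSyb, Syt1 and brp summed to 452.9 and 483 CPM in these Obp50d females and 223.7 to 311 CPM in the Obp50Neg females, and their part in the result was not tested. Female Sxl was highest in Obp50c, and only in its line 24 (928.4 and 1049 CPM). The other Obp50c line, line 6, had 483.4 and 449.3 CPM, beside 421.4 to 459.9 CPM in Obp50Neg. Neither joint call held when lines were taken as the replicates by summing their counts (adjusted p = 0.53 for Sxl and 0.485 for fru), when females were fitted alone (0.184 and 0.244), or without the 10 libraries with other-sex transcripts (0.121 and 0.172). Without line 24 the call of Sxl was lost (adjusted p = 0.141) and that of fru was not (0.0198). Leaving out 1 library at a time lost the call of Sxl in 15 of 53 runs (adjusted p up to 0.205), and that of fru in 2, each without 1 of the Obp50d females (0.0559 and 0.0574).

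Below the genotype, lines that carry the same version of the cluster differed. Averaged over the sexes, 9 of 42 tests of a line against the other line of its genotype passed, beside 14.6% of the tests over all genes. Between the lines of Obp50Neg and of Obp50NegBCD, 0 of 7 genes passed (edgeR; 0.115% and 0.715% of all genes). Line 24 against line 6 of Obp50c gave 5 of these calls, with 28.4% of all genes called.

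In line 24, Sxl was high in both sexes. Its males had 401.6 and 409.9 CPM, against 174.9 and 161.4 CPM in line 6 and at most 298.2 CPM in any other male library. The log2 difference of line 24 to line 6 was 1.08 (SE 0.23) in females and 1.27 (SE 0.23) in males, where 26.7% and 11.7% of all genes were called, and 1.18 (SE 0.16, adjusted p = 1.08e-06) over the sexes. The gene dsx was high as well, with 229 and 246.2 CPM in line 24 males, above 175.9 CPM, the highest of the other males. Its females had 66.29 and 54.79 CPM, against 46.26 and 37.76 CPM in line 6, and over the sexes the log2 difference was 0.76 (SE 0.12, adjusted p = 7.29e-06). For fru the log2 difference was 0.77 (SE 0.11, adjusted p = 2.49e-06), with 153.1 and 156.4 CPM in line 24 males and 92.37 and 90.74 CPM in line 6 males. Line 24 females had a mean of 78.75 CPM of fru, near lines 1, 4 and 7 (77.89, 76.89 and 85.36 CPM). Their mean of dsx, 60.54 CPM, was also close to those of lines 7 and 1 (55.38 and 54.56 CPM). High fru and dsx were thus not particular to line 24 in females.

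The same line had the lowest levels of ix, the Mediator subunit. Its 2 female libraries had 6.543 and 6.422 CPM and its males 1.562 and 1.537 CPM, each pair below all other libraries of its sex. The log2 difference of line 24 to line 6 was -0.94 (SE 0.23, adjusted p = 0.00245), and it did not pass without the libraries with other-sex transcripts (-0.58, adjusted p = 0.0676), a set that holds 1 of the line 6 males. Levels of tra2 and her were not separated between the lines by the test (log2 -0.12 and -0.17, adjusted p = 0.437 and 0.458).

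For tra, line 24 went opposite ways in the sexes. Line 24 females had 4.424 and 3.126 CPM, the lowest of all female libraries, where line 6 females had 10.6 and 11.23 CPM. Line 24 males had 5.36 and 6.111 CPM, where line 6 males had 4.548 and 3.973 CPM. The log2 difference was -1.52 (SE 0.25, adjusted p = 3.14e-05) in females and 0.43 (SE 0.25, adjusted p = 0.307) in males. The difference between the sexes in this contrast was -1.95 (SE 0.36, adjusted p = 7.71e-04), in a test that called 7.43% of all genes. High Sxl RNA and low tra RNA thus stood together in these females. Which splice forms of Sxl and tra were present was not measured by these counts.

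Other transcripts also set line 24 apart. Its females had 11750 and 13760 CPM of yolk and egg shell markers, against 42090 and 47360 CPM in line 6. Their ovary germline markers summed to 2155 and 2490 CPM, against 901.4 and 943 CPM. Line 24 males had 3095 and 3326 CPM of accessory gland markers, the lowest of any males, against 6315 and 6864 CPM in line 6. The nervous system markers elav, nSyb, Syt1 and brp summed to a mean of 444.4 CPM in its females and 1278 CPM in its males, against 304.9 and 880.4 CPM in line 6. In females these markers did not set line 24 apart from lines 1, 4 and 7, whose means were 483, 446.2 and 468 CPM. The part of these marker shifts in the values of Sxl, tra, dsx, fru and ix was not tested. Without line 24, the mean sex differences were 1.18 for Sxl, 1.11 for tra, -1.70 for dsx, -1.18 for fru and 1.63 for ix.

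In each sex alone, 12 of 42 tests of line against line passed in females (16.2% over all genes) and 4 of 42 in males (4.07%). The difference between the sexes in such a contrast passed in 4 of 42 (7.16%). Apart from Obp50c, 4 genotypes had lines that differed in fru. Averaged over the sexes, fru passed in Obp50a (log2 0.73, 24.2% of all genes called) and Obp50b (-0.51, 12.4%). In Obp50a, line 1 females had 70.29 and 85.49 CPM of fru and line 11 females 26.98 and 34.48 CPM, a log2 difference of 1.34 (SE 0.16, adjusted p = 1.10e-07; 34.6% of all genes called). Their males were alike, at 123.7 and 110.9 CPM in line 1 and 106 and 111.1 CPM in line 11, and the difference between the sexes was 1.23 (SE 0.22, adjusted p = 1.97e-04; 22.3% of all genes called). The males of line 1 are of the first set and all other libraries of Obp50a of the second. In Obp50b, line 19 females had 36.23 and 33.99 CPM and line 4 females 77.05 and 76.73 CPM, a log2 difference of -1.13 (SE 0.16, adjusted p = 1.88e-06; 21.3% of all genes called). Line 19 males had 115.9 and 122.9 CPM and line 4 males 110.8 and 109.3 CPM, and the difference between the sexes was -1.25 (SE 0.22, adjusted p = 1.54e-04; 12.8% of all genes called). In Obp50cBCD, line 21 was above line 5 over the sexes for fru (log2 0.45, SE 0.13, adjusted p = 0.00994) and dsx (0.47, SE 0.13, adjusted p = 0.0115), with 21.8% of all genes called. All line 21 libraries belong to the first set and all line 5 libraries to the others, so that line and set cannot be told apart there. The line 5 values also rest on the male library at 78.17 CPM of fru, which had the lowest roX level of any male (517.4 CPM, the next 1046 CPM). Neither call held with DESeq2's size factors (log2 0.30 for fru and 0.31 for dsx, adjusted p = 0.0859 and 0.0714). In Obp50NegBCD, female fru was lower in line 26 than in line 27 (log2 -0.55, SE 0.16, adjusted p = 0.0311; 6.97% of all genes called).

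Female dsx differed between the lines of Obp50a and of Obp50b as well. It had 53.9 and 55.21 CPM in line 1 against 26.16 and 42.06 CPM in line 11 (log2 0.68, SE 0.17, adjusted p = 0.00205). In Obp50b it had 30.85 and 36.55 CPM in line 19 against 54.11 and 42.74 CPM in line 4 (log2 -0.52, SE 0.17, adjusted p = 0.0218). Line 19 females were also lower than line 4 females in Sxl (-0.63, SE 0.23, adjusted p = 0.0428) and higher in tra2 (0.43, SE 0.15, adjusted p = 0.0340). The dsx values of line 1 and line 11 did not overlap, and the difference between the sexes in that contrast passed (0.78, SE 0.23, adjusted p = 0.0169).

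**Figure D3:**
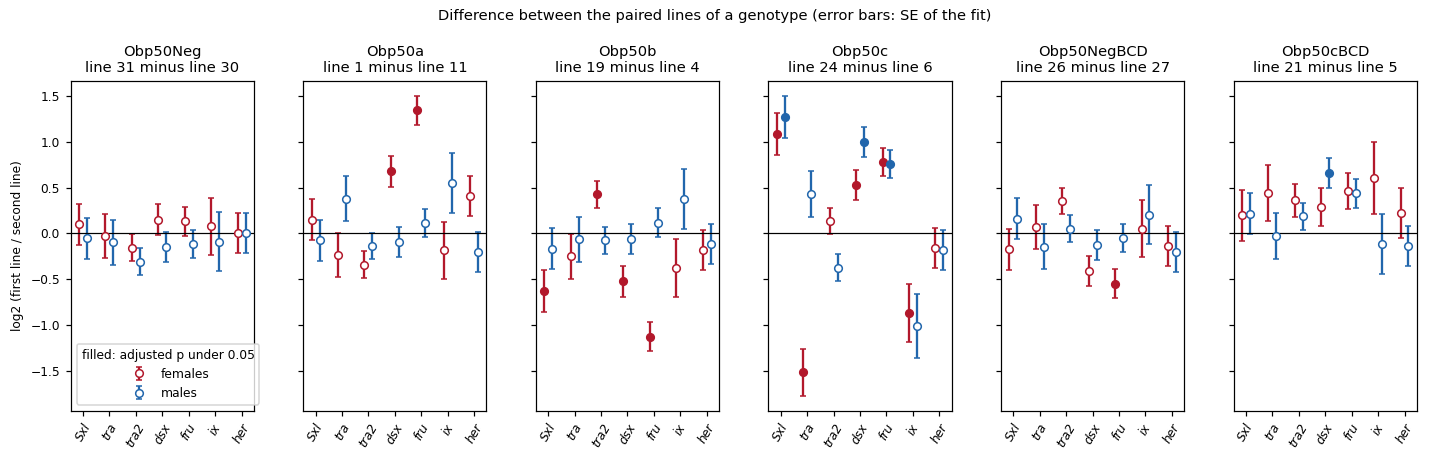
Panels are the 6 genotypes with a pair of lines. The y axis is the log2 difference between the lines, the x axis the 7 genes, red females and blue males with the SE of the fit, and filled points passed the test; line 24 against line 6 has the most filled points, and fru in females is filled in Obp50a, Obp50b, Obp50c and Obp50NegBCD.

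The female lines with high fru were those with high sums of a set of nervous system markers. The counts of 4 nervous system markers were summed in each library, namely elav, an RNA-binding protein of neurons, the synaptic vesicle proteins nSyb and Syt1, and the active zone protein brp. Line 1 females had a mean of 483 CPM of these markers and line 11 females 166.2 CPM, and line 4 females had 446.2 CPM against 199.4 CPM in line 19. Over the 26 female libraries, log2 fru and log2 summed markers had a Pearson r of 0.964 (0.961 without line 24). The correlation was 0.755 over the 28 male libraries. These points share library size, scaling and line, and the values are descriptions. For dsx the correlation was 0.903 in females and 0.409 in males, and for Sxl 0.732 and 0.819. For tra2 it was -0.621 in females and -0.028 in males. The male library J3_S53 (Obp50cBCD, line 5) had the lowest marker sum of the males (536.6 CPM, the next 843 CPM). It also had the lowest male levels of fru (78.17 CPM) and Sxl (101.5 CPM), and the male correlations were not computed without it. Other marker sums also went with female fru, and not all in the same direction. The r of fru with the eye markers ninaE, ninaC, trp and norpA was -0.647 in females. Female eye sums had means of 1931 CPM in line 1 and 2156 in line 11, and of 1948 in line 4 and 2238 in line 19. With ovary germline markers the r was 0.727, and with yolk and egg shell markers -0.665. What lies behind these correlations was not tested.

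The same markers were lower in females than in males, with sums of 137.7 to 495.8 CPM (median 285.4) and 536.6 to 1306 CPM (median 1079). All 4 were called lower in females, with a median log2 difference of -1.83, a larger difference than that of fru. For elav alone it was -1.02, less than that of fru (-1.18). Set against the sum of the 4, fru was not lower in females, with a level of 13.51% to 20.98% of the marker sum in females (median 17.15%) and 8.489% to 14.57% in males (median 10.78%). With the marker counts as the library size, a scaling added after the data were seen, the log2 sex difference of fru turned to 0.65 (adjusted p = 2.68e-13) and that of dsx to 0.14 (adjusted p = 0.136). This scaling moved the median of all genes by 1.88 and the share of calls higher in females from 47.4% to 80.7%, and the other 5 genes stayed higher in females. With the eye markers ninaE, ninaC, trp and norpA as the library size, which moved the median by 0.753 and that share to 66.2%, dsx stayed lower in females (-0.96) and fru too (-0.39), both past the threshold. Set against the sum of these eye markers, fru had a median of 1.851% in females and 3.001% in males. Against the flight muscle markers Act88F, fln, TpnC4 and Mhc it was 3.487% and 2.87%, with overlapping ranges. Not being lower in females was thus not particular to the nervous system markers.

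**Figure D4:**
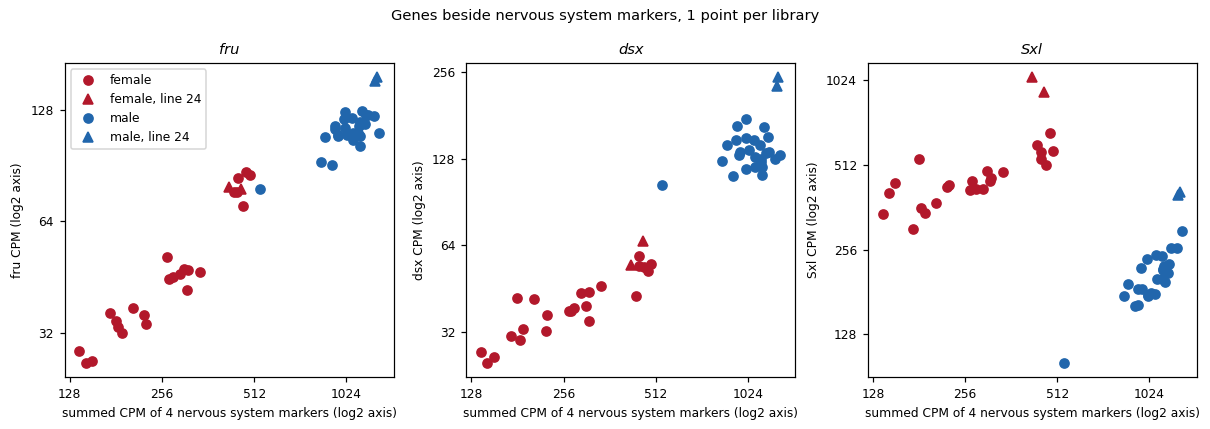
Each point is a library, with the summed CPM of elav, nSyb, Syt1 and brp on the x axis and the CPM of fru, dsx or Sxl on the y axis (both log2). Red are females and blue males; fru rises with the markers within females, while for Sxl the female points lie above the male points at lower marker sums.

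Among genes with a mean of at least 1 CPM (12774 genes), those most like each member across the 54 libraries were found from log2 CPM after the mean of each sex and genotype was subtracted. For fru these were GluClalpha, a glutamate-gated chloride channel (Pearson r = 0.966), NaCP60E, a voltage-gated sodium channel (0.965), and sls, a giant muscle protein (0.96). For dsx they were lncRNA:CR43459 (0.899), CG42674 (0.874) and tara (0.866). For Sxl they were mub, an RNA-binding protein (0.857), sty, an inhibitor of receptor tyrosine kinase signalling (0.854), and slo, a calcium-activated potassium channel (0.848). These values kept to 0.709 or more without line 24. Most groups hold a pair of lines, so that much of what remains after the subtraction can be differences between lines. The 54 points are therefore not independent, and these correlations and those below are descriptions.

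The gene tra had its closest patterns in RpL18 (0.748), inaD (0.718) and sug (0.714), which fell to 0.409, 0.268 and 0.345 without line 24. For tra2 the closest were Nsf2 (0.781), shv (0.771) and AP-2mu (0.766). For ix they were CG17361 (0.732), Fcp3C (0.699) and Mur11Da (0.68), and for her CG12121 (0.676), p38a (0.634) and sei (0.629). Among the 7 genes themselves, dsx and fru had r = 0.826, Sxl and dsx 0.701, and Sxl and fru 0.684. Without line 24 these were 0.801, 0.501 and 0.581. Within-group correlations of tra, ix and her with Sxl were -0.233, -0.339 and -0.053, and turned to 0.0484, 0.146 and 0.15 without line 24.

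The genes around the pathway were described from lists, with the same test of the sexes. Of all genes, 39.4% were higher and 43.6% lower in females in that test, and the members of each list are to be read against these shares. Of the 12 tested factors for Sxl splicing and m6A RNA methylation, 10 were higher in females and 0 higher in males, with a median log2 difference of 1.46 beside -0.10 for all genes. They included Mettl14, a subunit of the m6A writer (log2 1.96, SE 0.08), the snRNP protein snf (1.62, SE 0.07), and nito (1.58, SE 0.09), whose products act in the splicing of Sxl. The factors vir and pps did not pass. Of 9 X-chromosome signal genes and early Sxl regulators, 5 were higher in females and 3 in males (median 0.27). The signal elements sc (1.45), upd1 (-1.46) and sisA (-0.80) act in the early embryo and were at mean levels under 5 CPM in these adults, while the corepressor gro was at 198.1 ± 27.1 CPM in females and 102.5 ± 11.3 in males (0.95). The repressors dpn (1.22) and h (-0.88) were also called.

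Of 10 splicing partners of Tra and Tra2, 7 were higher in females (39.4% of all genes; median 1.10). The SR proteins x16 (log2 2.78, SE 0.09), SC35 (2.39, SE 0.10) and SF2 (1.99, SE 0.08) differed by more than tra or tra2 did. The SR protein kinase Doa was higher in males (-0.67, SE 0.11), and SRPK did not pass. Of the 11 tested germline sex regulators, 9 were higher in females and 2 in males (median 1.47). These were led by nos (6.09), otu (5.54) and ovo (2.61), which act in the female germline, and on the male side by bgcn (-4.54), which acts in differentiating germ cells, and mei-P26 (-0.48).

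The targets of Sxl included msl-2, whose translation Sxl blocks in females and which starts dosage compensation in males. Its RNA was 8.777 ± 1.65 CPM in females and 29.09 ± 3.22 in males (log2 -1.72, SE 0.07, adjusted p = 3.86e-25). Of 7 such targets, 5 were higher in females, among them nos, which is in the germline list too, e(r) (1.59) and N (1.19), and 2 in males, msl-2 and how (-0.39), with a median of 0.66. Of the 11 tested targets of Dsx and fat body genes related to sex, 6 were higher in females and 5 in males. The yolk protein genes Yp1 and Yp2, which female Dsx activates, differed by 7.71 and 7.74, and Fad2, a desaturase of female pheromone synthesis, by 7.63, with the male libraries that carry yolk transcripts included. Higher in males were sxe2 (-4.02), the homeotic gene Abd-B (-2.21) and bab2 (-1.13), which patterns abdominal pigment.

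For Fru partners and courtship genes, 6 of 11 were higher in females and 3 in males (median 0.72), a share of called genes near the 83% over all genes. The chromatin protein HDAC1 (log2 2.38), which acts with Fru, and the relaxin-type receptor Lgr3 (1.19) were higher in females. Hr51 (-1.68), the axon guidance receptor robo1 (-1.17) and dsf (-0.90) were higher in males, and dati and Poxn did not pass. The 3 relatives of dsx with a DM domain, dmrt93B (-3.78), dmrt99B (-1.50) and dmrt11E (-1.42), were all higher in males, at mean levels of 2.402 CPM or less.

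Most subunits of the Mediator complex, to which ix belongs, were higher in females. Of 28 tested subunits other than ix, 26 were higher in females and 1 in males (39.4% and 43.6% over all genes), with a median log2 difference of 1.06. MED21 (2.41, SE 0.11), MED22 (2.16, SE 0.12) and Cdk8 (1.96, SE 0.08) exceeded the 1.63 of ix. The subunit kto was slightly higher in males (-0.29, SE 0.10), and skd did not pass. Ovary germline markers moved with the same contrast, and their sum was 486.8 to 2490 CPM in females (median 863.8) and 135.4 to 386.3 CPM in males (median 247.7), with 4 of 6 called higher in females and 0 higher in males. Of the mean male sum of 252.9 CPM, 215.4 CPM was orb, a marker not called between the sexes (230.5 CPM in females). Testis markers ran from 6.742 to 34.18 CPM in females and from 667.3 to 1630 CPM in males. The part of the gonads in the values of the 7 genes and of the lists was not tested.

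**Figure D5:**
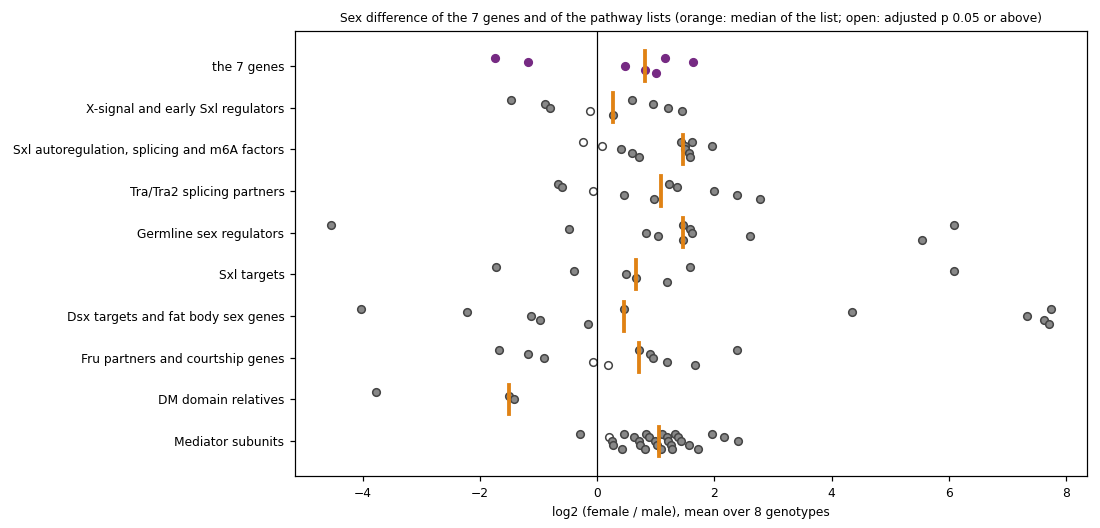
The x axis is the log2 difference of female over male and each row a list, with the 7 genes in purple at the top. Points are genes, orange bars list medians, and open points did not pass the test; the Mediator list and the Sxl splicing list lie mainly right of 0 and the DM domain relatives left of it.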

How the data were processed

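Whole-fly RNA was depleted of ribosomal RNA and sequenced by the authors. Per the file headers and the study's methods, reads were aligned with GSNAP to genome release 6 and fragments of up to 1200 bases were counted per gene over exons, without strand, with featureCounts 1.6.4. The deposited values are raw counts, not normalized, and the per-library tables held the same values as the series table in all shared cells. SAMtools and Subread are also named in the submitters' notes.

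From these counts, 15675 genes were tested, those detected in 25% of libraries or more whose median reached 2 counts, with edgeR 4.0.16 (TMM, quasi-likelihood, Benjamini-Hochberg at 0.05) in R 4.3.3, with 16 means of sex and genotype or 28 of sex and line. The female libraries 55_S45 (Obp50cBCD) and J2_S52 (Obp50Pos) were left out, as the study did. In its clustering they did not clearly group with the other female samples. CPM are TMM-scaled; SEs come from the quasi-likelihood F statistic. Total counts were 17710678 to 39058552 in females and 14638498 to 53517693 in males. Libraries of a group differed by more than sampling noise, and p-values measure the spread between these pools. Alternatives used DESeq2 1.42.0, limma 3.58.1 and lmerTest 3.1.3. On simulated data, the mean sex difference was tested with edgeR, DESeq2, limma-voom without a line block and the mixed model. With edgeR, 1 contrast of lines, the interaction and the joint test in males were also run there. Other steps were not tested on simulated data. Genes named are the 7 members, from each list the 3 largest called differences per direction, and the 3 closest genes by correlation. Some genes that this rule picks from the lists are not reported here. Members and lists were chosen with earlier results of these data known. Line contrasts within 1 sex, and their difference between the sexes, were added after the data were seen. Listed symbols without a match in the table (such as bam and Ime4) were not used here.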

Additional observations from a re-analysis of the deposited data

Results flagged for a closer look

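In 77 combinations of a gene and a group of 4 libraries or more, 1 library stood apart from the rest of its group by Dixon's criterion, which chance meets in about 1 of 20 groups. This was her in male Obp50a, at 16.04 CPM in library 81_S33 of line 11, where the others had 11.8 to 12.3 CPM. The difference between lines differed between the sexes by its own test in 4 cases. These were dsx (log2 0.78) and fru (1.23) for line 1 against line 11 of Obp50a, fru (-1.25) for line 19 against line 4 of Obp50b, and tra (-1.95) for line 24 against line 6 of Obp50c.

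In the left-out female Obp50Pos library J2_S52, dsx (48 CPM) and fru (79.48 CPM) lay above all Obp50Neg females (29.55 to 44.11 and 32.95 to 49.88 CPM). These values and those that follow are scaled with all 56 libraries. The same library had 28.18 CPM of tra2, below all females in use (42.78 to 64.73 CPM) and inside the male range (22.1 to 35.32 CPM), and 6.8 CPM of ix, between the sexes. Its Sxl (306.5 CPM) was below all females in use (313.6 to 1137 CPM), and its tra (5.117 CPM) was inside the male range (3.557 to 6.92 CPM). The study left this library out because it did not clearly group with the other females, so its values do not describe Obp50Pos females.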

How the results depend on the processing

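All 7 sex differences averaged over genotypes passed the test under every alternative run except that dsx (0.14) and fru (0.65) turned positive, dsx no longer past the threshold, with nervous system markers as the library size. Calls within genotypes were 52 and ran from 42 (counts summed by line) to 53, with 43 under DESeq2 and under its size factors. Of the 9 line calls, tra for line 24 against line 6 was lost with all 56 libraries (adjusted p = 0.0706) and without those with other-sex transcripts (0.139), and ix in the same contrast without the latter (0.0676). The calls of dsx and fru for line 21 against line 5 were lost with DESeq2's size factors (0.0714 and 0.0859) and with a mean count of at least 10 (0.0550 and 0.0517). The 10 libraries with other-sex transcripts, line 24 and both marker scalings were chosen after seeing the data.

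The joint test in females called 2 of the 7 genes. It called 4 with all 56 libraries or DESeq2, 1 without line 24, and 0 with counts summed by line, each sex alone, limma-voom, the mixed model, or without the libraries with other-sex transcripts. Leaving out 1 library gave 0 to 4 calls. Contrasts of genotypes gave 0 calls, and 3 with DESeq2, 2 with its size factors or a mean count of at least 10, and 1 with all 56 libraries, a set term or without line 24. Leaving out 1 library gave 0 to 4. The interaction gave 0 calls and 1 in the mixed model. Over all genes, the joint test in females called 3858, against 445 (summed), 6636 (DESeq2), 217 (each sex alone), 257 (limma-voom), 190 (mixed model) and 1255 (without other-sex transcripts), and 2722 to 4792 when 1 library was left out. In males it called 467, against 1 (summed), 2529 (DESeq2), 2569 (each sex alone), 37 (limma-voom), 1105 (mixed model), 176 (set term) and 199 (without other-sex transcripts), and 276 to 840. The interaction called 309, against 0 (summed), 1776 (DESeq2), 13 (limma-voom), 1646 (mixed model), 196 (set term) and 4 (without other-sex transcripts), and 129 to 521. The cause of these shifts was not tested. The single female Obp50Pos library could not be left out, so 53 of 54 were run. No paired analysis was possible because the labels give libraries no replicate numbers shared between groups, but the sexes share lines. With line as a fixed term or as a random block, 52 of 56 within-genotype calls were made, 1 lost and 1 gained in each.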

Other observations

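In the other left-out library, 55_S45 of female Obp50cBCD, dsx had 17.26 CPM, below the females in use (23.68 to 72.09 CPM, all scaled with 56 libraries). Its fru (28.45 CPM), tra2 (46.64 CPM), ix (9.969 CPM) and tra (8.512 CPM) were inside the female ranges, and Sxl (298.5 CPM) was below them (313.6 to 1137 CPM). With both libraries put back, the joint test in females called 4 of the 7 genes in place of 2, adding dsx (adjusted p = 0.0191) and tra (adjusted p = 0.0446; edgeR).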
